A study of Mus musculus with 163 samples.

Results

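Fully grown oocytes (FGOs) that began as induced pluripotent stem cells (iPSCs) were compared with FGOs that were taken into culture within their follicles from ovaries 6 days post partum (6 dpp). All 24 iPSC-derived and all 24 6 dpp follicle-derived FGOs of the series were used, which is 48 of 163 oocytes. The iPSC-derived oocytes came from 1 female line, BVSC-iPSC, which carries the Blimp1-Venus and Stella-ECFP reporters. Its primordial germ cell-like cells were aggregated with gonadal somatic cells of outbred Swiss Webster embryos at E12.5, from which the embryos' own germ cells had been depleted. Oocytes then differentiated and grew in these reconstituted ovaries. The study reports some oocytes without Stella-ECFP there and holds that they likely arose because the depletion was incomplete. Whether any oocyte sequenced here was of this kind was not tested. The 6 dpp oocytes had differentiated in the ovary and only grew in culture, and the strain of those mice is not stated in the sources used here. Follicles of both groups were cultured apart from the ovary in the growth step, and each oocyte was stripped of its follicle cells and zona pellucida ahead of lysis. Genotype, the somatic cells around the oocyte, time in culture and the route to the oocyte all differ between the groups and cannot be told apart. The comparison takes these together and cannot isolate what germ cell formation and oocyte differentiation in culture add to growth in culture.

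During growth the mouse oocyte stores most of the RNA and protein that the early embryo will use, and in the fully grown oocyte transcription falls silent. Levels in FGOs therefore reflect transcripts made earlier in growth and kept. Oocytes are defined by the zona pellucida proteins, by the secreted growth factors Gdf9 and Bmp15 that act on granulosa cells, and by maternal effect proteins that are needed after fertilization. Granulosa cells surround the oocyte and are joined to it by gap junctions, and theca cells lie outside them.

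Each sample was 1 oocyte sequenced by Smart-seq2, a full-length protocol for polyadenylated RNA. No label names an animal, embryo or culture behind an oocyte, so each group counted as 1 sample and no comparison was tested. Total counts ranged from 3990217 to 7784730 reads in iPSC-derived FGOs and from 4795157 to 7864764 in 6 dpp FGOs, with medians of 7055728 and 6714029. Levels are given in counts per 1000000 reads (CPM), pooled over a group and as the lowest, median and highest oocyte, and intervals are exact Poisson 95% intervals that cover counting error only. A ratio is log2 of pooled CPM + 0.5 in iPSC-derived over pooled CPM + 0.5 in 6 dpp FGOs, so that it understates differences of genes of low level. A gene is called higher or lower here when it is past 4-fold in this ratio. Some libraries stood apart from their group. The 6 dpp FGOs 10 and 12 carried the most transcripts of follicular somatic cells. A number of the other 6 dpp FGOs were raised to a lesser degree in the theca and stroma list, in large part through Hsd3b1. The iPSC-derived FGOs 14 and 24 were high in Zscan4c, Zscan4d and other genes of the 2-cell stage. In iPSC-derived FGOs 13 and 14 and 6 dpp FGO 3, 64, 51 and 44 of the genes compared lay 4-fold or more below their own group's median.

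The oocyte markers were measured in both groups, in keeping with the label. All 16 of them lay within 2-fold between the groups. Gdf9 ran from 2913 to 8088 CPM over iPSC-derived FGOs, with a median of 4988, and from 3676 to 8588 with a median of 6523 over 6 dpp FGOs, a ratio of -0.35. Zp3, the zona protein that binds sperm, gave -0.08, and Nobox, a transcription factor of the oocyte, gave -0.04. The ratio farthest from 0 was that of Kit, the receptor through which granulosa cells stimulate growth, at -0.86. Its level was 70.1 to 179 CPM with a median of 133 in iPSC-derived FGOs and 89.6 to 296 with a median of 218 in 6 dpp FGOs, so the groups overlapped. The median ratio of the 16 markers was -0.25, beside -0.06 over all 13582 genes tested. Genes entered when they were above 1 CPM in at least 3 FGOs of any source.

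Most of the transcriptome was shared, and the differences were concentrated in a small number of genes. Of the 13582 genes, 12506 (92.1%) lay within 2-fold. At 2-fold or more, 459 genes (3.38%) were higher and 617 (4.54%) lower in iPSC-derived FGOs. At 4-fold or more, 106 (0.780%) were higher and 57 (0.420%) lower. These counts moved with the pseudocount, to 188 and 158 at 0.1 CPM and 46 and 18 at 2 CPM, and the coefficient of an edgeR fit gave 263 higher and 291 lower, so that which side held more genes turned. In 77 genes (0.567%) the lowest iPSC-derived FGO was above the highest 6 dpp FGO, and in 78 (0.574%) the highest iPSC-derived FGO was below the lowest 6 dpp FGO. Both conditions, a 4-fold ratio and groups that did not overlap, were met by 41 genes on the higher side and 7 on the lower side. The lower calls rested in large part on 1 library. Without 6 dpp FGO 12, 112 genes were higher and 28 lower, and without 6 dpp FGOs 10 and 12 the counts were 113 and 22. Without iPSC-derived FGOs 14 and 24 they were 92 and 57.

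**Figure D1:**
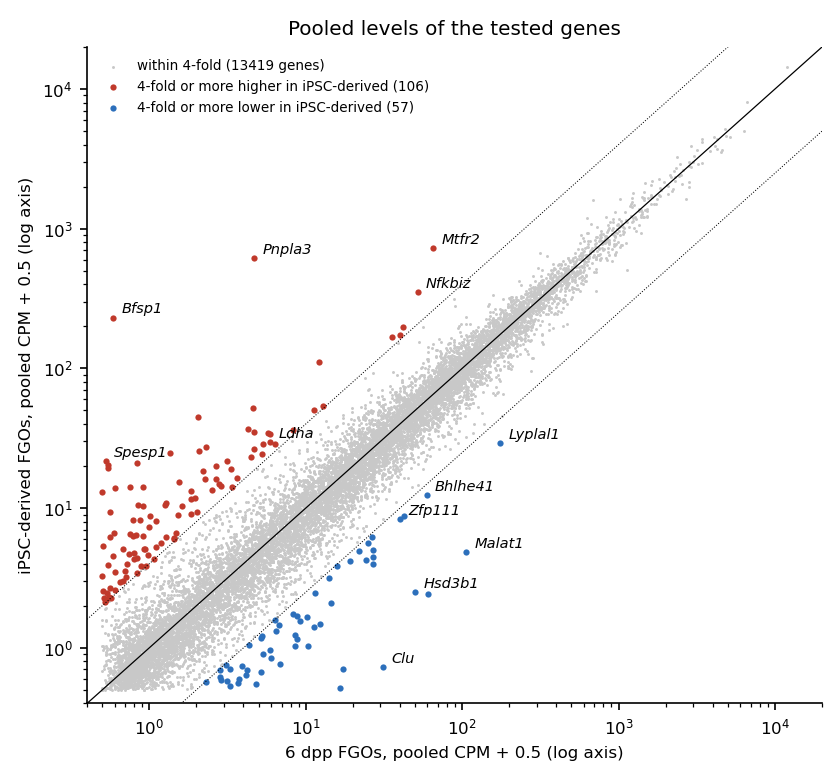
Pooled CPM + 0.5 of each of the 13582 tested genes in 6 dpp FGOs (horizontal axis) and iPSC-derived FGOs (vertical axis), both on log axes, with equality as a solid line and 4-fold as dotted lines. The 106 genes called higher (red) include Bfsp1 and Pnpla3 far above the dotted line, and the 57 called lower (blue) include Lyplal1, Bhlhe41 and the somatic cell genes Hsd3b1 and Clu.

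Oocytes of a group resembled each other more than oocytes of the other group. The median Pearson r of log2(CPM + 0.5) across genes was 0.971 between pairs of iPSC-derived FGOs and 0.975 between pairs of 6 dpp FGOs. Between an iPSC-derived and a 6 dpp FGO it was 0.954. Principal component 1, with 25.6% of the variance, split the groups. Its scores ran from 25.9 to 51.4 in iPSC-derived FGOs and from -45.3 to -21.8 in 6 dpp FGOs, so the groups did not overlap on it. As a check for a library deposited more than once, the counts of libraries of a group were compared in pairs. The smallest reduced chi-square was 6.12, set against counting error only, which separate amplified oocytes would exceed in any case. The number of genes above 1 CPM was close in both groups, with a median of 10784 (10617 to 10966) against 10879 (10582 to 12030).

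The promoters of 5 genes on which the comparison turns are shown here, 3 from the higher and 2 from the lower side, because these genes separated the groups oocyte by oocyte. They are RefSeq sequences of GRCm38.p6, from 250 bases before to 50 bases after the first listed start, read 5′ to 3′ on the strand of the gene, and capitals mark CG dinucleotides (CpGs), the sites of DNA methylation. Bfsp1 lies at chr2:143863124-143863423, minus strand, Pnpla3 at chr15:84167566-84167865, plus strand, Spesp1 at chr9:62282130-62282429, minus strand, Lyplal1 at chr1:186117261-186117560, minus strand and Bhlhe41 at chr6:145865371-145865670, minus strand. The window of Bfsp1 lies inside its gene, which spans chr2:143826528-143915219, and the outer start was not examined, whereas the other 4 windows cover the outer start of their gene.
Bfsp1: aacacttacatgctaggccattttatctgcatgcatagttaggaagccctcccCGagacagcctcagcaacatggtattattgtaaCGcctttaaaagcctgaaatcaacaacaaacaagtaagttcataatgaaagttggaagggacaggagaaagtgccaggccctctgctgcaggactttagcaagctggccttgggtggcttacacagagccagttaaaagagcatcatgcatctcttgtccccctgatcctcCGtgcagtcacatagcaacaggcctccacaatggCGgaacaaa
Pnpla3: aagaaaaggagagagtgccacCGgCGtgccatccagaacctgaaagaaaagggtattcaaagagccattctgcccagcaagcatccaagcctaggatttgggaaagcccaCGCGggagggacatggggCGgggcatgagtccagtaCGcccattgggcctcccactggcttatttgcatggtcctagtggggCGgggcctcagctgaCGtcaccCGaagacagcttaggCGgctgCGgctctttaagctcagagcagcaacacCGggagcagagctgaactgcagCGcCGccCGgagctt
Spesp1: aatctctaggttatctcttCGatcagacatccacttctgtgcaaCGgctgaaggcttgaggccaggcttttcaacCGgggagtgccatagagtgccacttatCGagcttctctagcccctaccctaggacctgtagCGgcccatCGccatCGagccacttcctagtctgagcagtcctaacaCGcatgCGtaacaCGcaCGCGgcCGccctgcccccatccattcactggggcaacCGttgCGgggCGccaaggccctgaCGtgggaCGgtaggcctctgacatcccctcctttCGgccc
Lyplal1: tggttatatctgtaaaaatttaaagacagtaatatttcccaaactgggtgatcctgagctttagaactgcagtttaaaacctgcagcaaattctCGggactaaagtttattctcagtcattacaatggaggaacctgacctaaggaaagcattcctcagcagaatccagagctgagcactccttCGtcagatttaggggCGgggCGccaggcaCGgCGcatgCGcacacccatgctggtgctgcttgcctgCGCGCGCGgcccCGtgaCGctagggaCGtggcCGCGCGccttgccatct
Bhlhe41: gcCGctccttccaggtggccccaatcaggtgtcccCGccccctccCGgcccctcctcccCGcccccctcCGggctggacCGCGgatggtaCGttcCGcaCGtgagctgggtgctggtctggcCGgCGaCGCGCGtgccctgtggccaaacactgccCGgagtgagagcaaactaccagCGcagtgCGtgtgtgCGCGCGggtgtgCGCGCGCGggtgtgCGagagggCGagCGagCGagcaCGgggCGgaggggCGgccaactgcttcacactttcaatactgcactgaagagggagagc
The Bfsp1 window holds 4 CpGs, that of Pnpla3 15, that of Spesp1 19, that of Lyplal1 17 and that of Bhlhe41 32. Among tested genes with a listed promoter, 10681 in number, the median was 19. It was 12 for the 81 higher genes and 10 for the 45 lower genes that had one. A window with an observed to expected CpG ratio of at least 0.6 and at least 50% G and C was counted as CpG-rich. This held for 60.7% of tested genes, 37.0% of the higher genes and 28.9% of the lower genes. Among called genes that separated the groups it held for 40.6% of 32 higher and 42.9% of 7 lower genes. Called genes were not matched to the others by level. Of the 57 lower genes only 22 were still called without 6 dpp FGOs 10 and 12. What sets these shares was not tested. The letters CACGTG, the E-box that Bhlhe41 itself is known to bind, were found in the Bhlhe41 window and in none of the other 4 windows. They were present in 9.76% of all windows, 7.41% of those of higher genes and 11.1% of those of lower genes. TATAAA on either strand was found in none of the 5 windows, in 8.36% of all, in 12.3% of higher and in 15.6% of lower genes.

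Bfsp1 and Pnpla3 were the furthest apart. Bfsp1 encodes filensin, a filament protein of the eye lens. It was at 129, 227 and 492 CPM in the lowest, median and highest iPSC-derived FGO and at 0, 0 and 0.417 in the 6 dpp FGOs, with pooled levels of 231 (229 to 233) against 0.0879 (0.0480 to 0.147) and a ratio of 8.62. Every iPSC-derived FGO thus held the transcript and no 6 dpp FGO held more than a trace. Pnpla3 encodes a lipid droplet-associated acyl hydrolase. It was at 321, 630.5 and 805 CPM against 2.29, 4.34 and 5.28, with a ratio of 7.06. Spesp1, known from the equatorial segment of the sperm head, was at 4.20, 20.5 and 41.5 CPM against 0, 0 and 0.292, with a ratio of 5.37. All 3 genes separated the groups completely.

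The remaining genes at the top of the higher side had varied functions. Adcy2, an adenylyl cyclase, was at 0.519, 9.93 and 76.9 CPM in the lowest, median and highest iPSC-derived FGO against 0, 0 and 0.386 in 6 dpp FGOs. Fam124a was at 4.34, 18.0 and 38.2 against 0, 0 and 0.725. Their ratios were 5.22 and 5.16, and neither overlapped between groups, although Adcy2 spread widely within the iPSC-derived group. Defb48, a beta-defensin, was at 6.26 to 17.9 CPM and had no read in any 6 dpp FGO, so that it was at least 664-fold higher against a floor of 3 counts over the group. Sis, the intestinal disaccharidase sucrase-isomaltase, was the only other gene past 4-fold with no read in any 6 dpp FGO. It was at 0.942 to 6.03 CPM, at least 146-fold higher on the same floor, and is named after its values were seen. Pxdn, a peroxidase that cross-links collagen IV, had a median of 20.9 CPM against 0, but 1 or more iPSC-derived FGOs had no read of it and the highest 6 dpp FGO reached 4.32, so the groups overlapped at a ratio of 4.66.

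Skint5, of a family that supports epidermal T cells, and the long noncoding RNA A930015D03Rik followed at ratios of 4.54 and 4.45, both without overlap. A930015D03Rik was the more even, at 32.6, 42.9 and 63.5 CPM against 0.755, 1.45 and 4.16. Nfam1, a receptor with a signalling motif of immune cells, gave 4.23 with overlap, and Slc4a3, an anion exchanger, gave 4.21 without. Naip6, a sensor of bacterial proteins, had a ratio of 4.08, but its median of 3.01 CPM and highest value of 63.2 show that a minority of oocytes carried most of its reads. Pknox2, a homeodomain factor, Pla2g4f, a cytosolic phospholipase, and Inpp4b, a phosphoinositide phosphatase, gave 3.97, 3.63 and 3.63. Pknox2 and Pla2g4f did not overlap between groups, with lowest iPSC-derived values of 7.83 and 8.09 CPM above highest 6 dpp values of 1.42 and 4.04. Naip6, Defb48 and Skint5 belong to families of close copies, which makes their levels uncertain.

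A few called genes were abundant in iPSC-derived FGOs, and they are named after their values were seen. Mtfr2, a regulator of mitochondrial fission, was at 579.6, 715 and 929 CPM against 38.3, 64.5 and 104, a ratio of 3.47 with no overlap. Ralgds, a Ras effector, was at 104, 171 and 426 against 31.7, 41.0 and 59.8, and Mcub, a subunit of the mitochondrial calcium uniporter, at 136, 174 and 204 against 25.0, 41.0 and 51.1. Their ratios were 2.22 and 2.11, and both separated the groups. Alyref2, related to an mRNA export factor, was at 69.6 to 167 against 6.89 to 19.8 CPM. Nfkbiz, an inducible regulator of NF-kappaB target genes, had a ratio of 2.76, but its ranges of 113 to 781 and 7.75 to 202 CPM overlapped.

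On the lower side the genes that separated the groups were Lyplal1, Zfp111, Bhlhe41, 1700057H21Rik, Myo10, Slc2a10 and Stox2. Lyplal1, a lysophospholipase-like enzyme, was at 18.8, 25.9 and 63.3 CPM in the lowest, median and highest iPSC-derived FGO against 128, 176 and 202 in 6 dpp FGOs, with pooled levels of 28.7 (27.9 to 29.5) against 175 (173 to 177) and a ratio of -2.59. Bhlhe41, a transcriptional repressor of the circadian clock, was at 3.26, 9.65 and 24.5 against 29.5, 56.0 and 84.7, a ratio of -2.25. Zfp111, a zinc finger protein, was at 1.33, 7.61 and 13.6 against 17.9, 39.9 and 54.8, a ratio of -2.26. The noncoding RNA 1700057H21Rik gave -2.63, and Myo10, a myosin of filopodia such as those that link granulosa cells to the oocyte, gave -2.19. Slc2a10, a glucose transporter of the GLUT family, and Stox2 gave -2.15 and -2.03. The ratios of all 7 stayed past 4-fold without 6 dpp FGOs 10 and 12, between -2.65 for 1700057H21Rik and -2.01 for Stox2. That of Stox2 was -1.98 without iPSC-derived FGO 4.

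Other lower genes overlapped between the groups but did not depend on those 2 libraries. Gpd2, the mitochondrial glycerol-3-phosphate dehydrogenase, was at 0, 1.12 and 5.73 CPM against 2.42, 13.3 and 34.0, a ratio of -2.79, and -2.80 without 6 dpp FGOs 10 and 12. Sec16b, which organizes export sites of the endoplasmic reticulum, was at 0.703, 3.65 and 7.86 against 6.00, 25.3 and 45.4, a ratio of -2.60. Htr5b, a serotonin receptor, was at 0.270, 2.88 and 12.6 against 7.10, 22.9 and 40.9, a ratio of -2.53. In these 3 genes the groups overlapped at their edges, the median of each lying outside the other's range. Tuba3b, an alpha-tubulin with close copies, had a median of 0.345 against 28.2 CPM, and Ankrd33b one of 1.62 against 37.2, yet some iPSC-derived FGOs reached 34.8 and 42.6. Aox4, an aldehyde oxidase, gave -2.29, Peli2, a ubiquitin ligase of Toll-like receptor signalling, gave -2.38, and Pnmal1 gave -2.25.

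**Figure D2:**
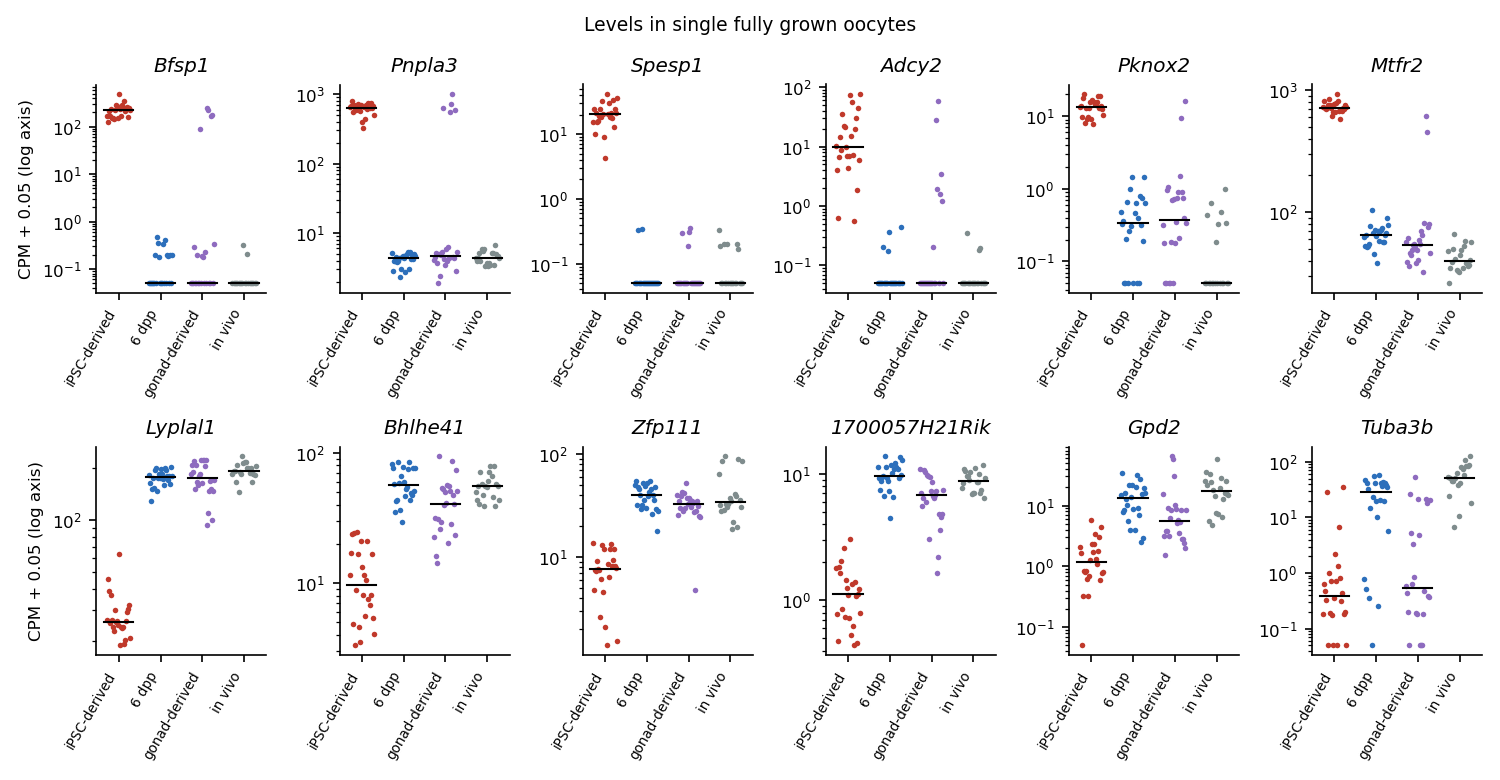
CPM + 0.05 (log axis) of 12 genes in single FGOs, with 1 point per oocyte in order of its number within each source (24 iPSC-derived, 24 6 dpp, 24 gonad-derived, 20 in vivo) and the median of the source as a line. Bfsp1, Pnpla3 and Mtfr2 were high in every iPSC-derived FGO, low in every 6 dpp and in vivo FGO, and split between both levels among gonad-derived FGOs.

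The other FGOs of the series did not enter the ratios above, and their levels are given beside them. Gonad-derived FGOs came from E12.5 gonads that were dissociated and reaggregated whole, germ cells included, and then followed a similar differentiation protocol with a shorter growth culture, so that more than the germ cell source sets them apart from iPSC-derived FGOs. The strain of these gonads is not stated for this experiment in the sources used here, so that the genotype of gonad-derived oocytes is unknown. In vivo FGOs grew in the mouse. Pnpla3 was at 561 to 1005 CPM in 5 gonad-derived FGOs and at 1.84 to 6.19 in the other 19, with none between. Bfsp1 was at 88.7 to 245 CPM in 5 of them and at 0 to 0.290 in 19, and Mtfr2 at 457 to 613 CPM in 2 and at 31.9 to 81.5 in 22. The oocytes at the high level were numbers 10, 17, 18, 19 and 22 for Pnpla3, numbers 10, 17, 18, 21 and 22 for Bfsp1 and numbers 20 and 21 for Mtfr2, so that they differed from gene to gene. The splits, at 100, 10 and 200 CPM, were set after the values were seen. Gonad-derived growing oocytes (GROs) fell into the same levels, with 16 of 24 high for Pnpla3, 8 for Bfsp1 and 11 for Mtfr2. No in vivo FGO reached the iPSC-derived range of any of the 3 genes.

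Of the 41 higher genes without overlap, 25 had at least 1 gonad-derived FGO inside the iPSC-derived range, that is at or above the lowest iPSC-derived FGO, and each of these 25 also had gonad-derived FGOs inside the 6 dpp range, at or below the highest 6 dpp FGO. For A930015D03Rik, 7 gonad-derived FGOs lay in the iPSC-derived range and 17 in the 6 dpp range, and for Alyref2 the counts were 4 and 20. In 8 of the 41 genes every gonad-derived FGO was within the 6 dpp range, among them Sis, Ralgds, Ptpn5 and Rsph9. Spesp1 belonged with the genes that no gonad-derived FGO carried at the iPSC-derived level, 23 of 24 being within the 6 dpp range. Among in vivo FGOs 7 of the 41 genes had an oocyte in the iPSC-derived range, and in 24 genes all 20 oocytes were in the 6 dpp range. On the lower side 6 of the 7 genes had at least 1 gonad-derived FGO in the iPSC-derived range, and 1 of the 7 had in vivo FGOs there. Lyplal1 had no gonad-derived or in vivo FGO in that range, while Bhlhe41 had 5 gonad-derived and 0 in vivo FGOs there. The gene with in vivo FGOs as low as the iPSC-derived ones was Stox2, with 14 of them beside 6 gonad-derived FGOs.

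Most of the higher genes were also higher by 4-fold or more in growing oocytes of the same line. iPSC-derived GROs were set against in vivo GROs, 23 against 24 oocytes that share no library with the FGOs, although the iPSC line is the same. The study reports that its iPSC-derived GROs were larger than its in vivo GROs, and size was not taken into account here. No filter on levels was set among GROs. Of the 106 higher genes, 105 (99.1%) had a ratio above 0, beside 47.3% of the 13582 genes tested in FGOs. Past 4-fold were 64 of them (60.4%), beside 1.03% of all genes, and their median ratio was 2.49. A ratio within 2-fold was found for 15, among them Tmem189, named after its values were seen, at 4.72 against 3.78 CPM and a ratio of 0.29. Ldha, the lactate dehydrogenase subunit that converts pyruvate to lactate, was at 152 CPM in iPSC-derived against 1.08 in in vivo GROs, a ratio of 6.59, larger than its 2.33 in FGOs. Zscan4c, a gene of the 2-cell stage, was the 1 below 0, at -0.43. Of the 106 genes, 89 were above 1 CPM in at least 3 gonad-derived or in vivo GROs, while 13 reached this only with iPSC-derived GROs. Among FGOs, 18 of the 106 had not reached this level in gonad-derived or in vivo oocytes. A gene of very low level in in vivo GROs has little room to fall, so that the shares of all genes are not a like comparison.

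The lower genes followed the same direction less far. Of the 57, 51 (89.5%) had a ratio below 0, beside 52.6% of all genes, and 6 (10.5%) were past 4-fold, beside 0.199%. For the 22 that were called without 6 dpp FGOs 10 and 12 the counts were 21 below 0 and 5 past 4-fold. Htr5b was at 4.43 against 47.2 CPM in GROs, a ratio of -3.28, and Lyplal1 at 25.7 against 151, a ratio of -2.53. Sec16b, in contrast, had 3.50 against 2.09 CPM in GROs and a ratio of 0.63.

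**Figure D3:**
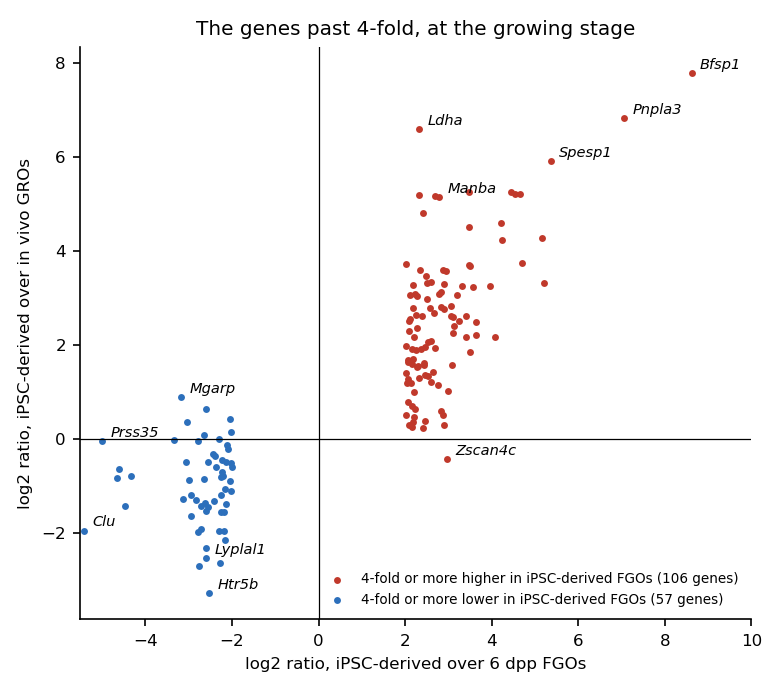
Log2 ratio of iPSC-derived over 6 dpp FGOs (horizontal axis) and of iPSC-derived over in vivo GROs (vertical axis) for the 106 genes called higher (red) and the 57 called lower (blue) in FGOs, 1 point per gene. Higher genes lie above 0 in GROs except Zscan4c, and most lower genes lie below 0.

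By their levels in vivo, most of the higher genes were stable genes of low level. Classes were taken from in vivo oocytes only, which the comparison does not use. They were genes whose pooled level from the growing to the fully grown stage increased by 2-fold or more (UP), decreased by 2-fold or more (DN), or were stable below (LS) or at and above (HS) 10 CPM. Of 4361 LS genes 83 (1.90%) were higher and 26 (0.596%) lower, while of 6163 HS genes 5 (0.0811%) were higher and 7 (0.114%) lower. Among 1377 UP genes, 161 (11.7%) were at least 2-fold lower and 70 (5.08%) at least 2-fold higher, with a median ratio of -0.25. DN genes had a median of -0.14. A gene at a low level in 6 dpp FGOs has more room to rise than one at a high level, and this was not corrected for. The filter also admits genes through the iPSC-derived FGOs themselves. Among the 3810 LS genes above 1 CPM in at least 3 gonad-derived or in vivo FGOs, 65 (1.71%) were higher and 22 (0.577%) lower, so that 18 of the 83 higher LS genes had not reached this level there.

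Chromosome medians lay close together, while the share of called genes varied between chromosomes. Over 6695 genes of at least 10 CPM in both groups, chromosome medians ran from -0.07 to 0.05, beside -0.02 over all of these genes. On chromosome 7, which had the highest median, 17 of 1009 tested genes (1.68%) were called higher, and on chromosome 15 10 of 559 (1.79%), beside 0.780% of all genes. On chromosome 5 it was 1 of 882 and on chromosome 19 none of 455. Some called genes lay near another called gene of the same direction. At gaps of up to 500000 bases, between which other genes can lie, 15 such pairs were found on the higher and 5 on the lower side, and the number that the spacing of genes alone would give was not computed. Pla2g4f and Tmem87a on chromosome 2 lie 41144 bases apart and had ratios of 3.63 and 3.57, and Tph1, Ldha and Ptpn5 on chromosome 7, at gaps of 169737 and 222168 bases, had 2.46, 2.33 and 2.19. Tuba3b and Bhlhe41 on chromosome 6 are 236766 bases apart and were both lower. Pairs such as Zscan4c with Zscan4d, Skint6 with Skint5 and Gstm2 with Gstm1 are close copies, and reads that matched more than 1 place were not counted, so that their levels are uncertain.

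Genes needed for oocyte competence lay within 2-fold with few exceptions, as did 92.1% of all genes tested, so that counts near this share are no result about a list. In the gene lists below, counts past 2-fold include those past 4-fold. Over all genes tested, 3.38% were past 2-fold higher and 4.54% lower, and 0.780% and 0.420% were past 4-fold. Of 22 maternal effect genes, which include the subcortical maternal complex that the cleaving embryo needs, none was past 2-fold, with a median of -0.07. Zar1l, a regulator of stored mRNA, had the highest ratio at 0.52 and Ago2, an effector of small RNAs, the lowest at -0.61. Of 25 genes of meiotic arrest and resumption none was past 2-fold either, and Gpr3, the receptor that keeps cyclic AMP high and so holds the oocyte in meiosis, gave -0.62. All 34 Polycomb and 13 DNA methylation genes lay within 2-fold, with medians of -0.03 and -0.05. Eed, a core subunit of Polycomb repressive complex 2 (PRC2), was at 191, 248 and 341 CPM against 99.2, 159.7 and 222, a ratio of 0.66. The ratios of Ezh2, the methyltransferase of PRC2, and of the de novo DNA methyltransferase Dnmt3a were 0.06 and 0.02. Of 10 oocyte growth factors only Kitl was past 2-fold, at 0, 4.74 and 10.9 CPM against 8.23, 14.6 and 34.9 and a ratio of -1.47. It encodes the ligand of Kit that granulosa cells make.

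Transcripts of earlier steps of the germ line were examined next, beside the same shares of all genes. Of 10 pluripotency genes none was past 4-fold and 2 were past 2-fold. Klf4 was at 0.407, 8.48 and 24.3 CPM against 0.626, 2.42 and 4.57, a ratio of 1.68, and Zfp42 gave 1.19 at a low level of 1.55 against 0.395 CPM. The 7 primordial germ cell genes were all within 2-fold. Of 21 genes of meiotic prophase and cohesin 1 was past 4-fold. Hormad1, a protein of the unsynapsed chromosome axis, was at 3.57, 16.1 and 24.9 CPM against 0.277, 1.31 and 4.89, a ratio of 2.82, and most iPSC-derived FGOs were above every 6 dpp FGO. Meioc, which stabilizes meiotic transcripts in prophase, gave 1.76 and overlapped between groups. Sycp3, of the synaptonemal complex, gave 0.96, its highest iPSC-derived value being 426 CPM against a median of 99.1. Dppa3, the gene of the Stella reporter, was at 1135, 1807 and 3075 CPM against 1187, 1432 and 2431, a ratio of 0.31, and a transgene could not be told from the gene itself in these counts.

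Glycolysis was the metabolic list with the highest median, 0.19 over 23 genes. In it 1 gene was past 4-fold and 4 were past 2-fold higher, with none past 2-fold lower. Of all genes tested, 0.780% were past 4-fold higher, 3.38% past 2-fold higher and 4.54% past 2-fold lower. Ldha was at 0.260, 23.4 and 111 CPM against 0, 1.64 and 40.5, a ratio of 2.33 with wide overlap. Tpi1, triose phosphate isomerase, was at 93.0, 274 and 441 against 37.1, 90.6 and 161 and gave 1.65. Pfkl, the liver form of phosphofructokinase, and Aldoa, an aldolase, gave 1.29 and 1.14. The 22 genes of cholesterol synthesis were all within 2-fold, with a median of 0.13. Of 22 genes of lipid storage and fatty acid oxidation, Pnpla3 was the 1 past 4-fold, and 4 were past 2-fold lower. These were Scd1 and Scd2, which desaturate fatty acids, at -1.75 and -1.51, Elovl6, which elongates them, at -1.06, and Cpt1a, of fatty acid import into mitochondria, at 0.692 against 1.89 CPM. All 4 were below 5 CPM in both groups, and the medians of Scd2 over oocytes were 0.563 against 0.623, while its highest 6 dpp value was 76.3.

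Lists of stress and defence genes are read beside the shares of all genes past 4-fold, 0.780% higher and 0.420% lower, under which lists of this size would hold less than 1 called gene. Past 2-fold the shares of all genes were 3.38% higher and 4.54% lower, and counts near them are no result about a list. Of 24 antioxidant genes none was past 4-fold and 3 were past 2-fold lower, among them Nfe2l2, the regulator of the antioxidant response, at 0.667, 12.2 and 27.3 CPM against 21.8, 29.7 and 48.9 and a ratio of -1.18. Cat, catalase, and Gpx8 gave -1.43 and -1.06 at low levels. Of 19 heat shock and chaperone genes only Atf4, a factor of the integrated stress response, was past 2-fold, at 51.3, 137 and 293 CPM against 154, 330.4 and 645 and a ratio of -1.14. Hspa5, the chaperone of the endoplasmic reticulum, gave -0.96. Among 20 genes of DNA damage and oocyte death, Naip6 was the 1 past 4-fold, Pmaip1, a promoter of apoptosis, gave 1.64 and Mcl1, an inhibitor of it, gave -1.09. The medians of Pmaip1 were alike, 0.617 against 0.570 CPM, while its highest values were 36.3 and 4.98.

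Of 12 genes of chemokines and innate immunity 2 were past 4-fold higher and 1 lower. Beside Naip6 the higher gene was Ccl2, a monocyte chemokine, at 0, 3.94 and 132 CPM against 0, 1.80 and 8.61 and a ratio of 2.59, which was 1.52 without iPSC-derived FGOs 14 and 24. The lower gene was Tnfrsf21, a death receptor, at 0, 1.19 and 13.2 CPM against 1.29, 8.24 and 47.0 and a ratio of -2.16. Ccl4 gave 1.76 and Cxcl14 gave -1.03. Of 38 imprinted genes, which are expressed from 1 parental allele in the embryo, 1 was past 4-fold higher and 2 lower, with 4 past 2-fold in each direction and a median of 0.02. The shares of all genes past 2-fold were 3.38% higher and 4.54% lower, and past 4-fold 0.780% higher and 0.420% lower. Gab1, an adaptor of receptor tyrosine kinases, gave 2.54, with a median of 3.10 and a highest value of 81.5 CPM, and 1.85 without iPSC-derived FGO 13, which ended the call. Zrsr1, Igf2 and Asb4 gave 1.87, 1.17 and 1.15. Inpp5f, at 8.58, 16.0 and 28.3 against 22.2, 37.8 and 53.0 CPM, gave -1.19. The other imprinted genes past 2-fold lower, Cd81, Nap1l5 and Nnat, had highest 6 dpp values of 202, 32.1 and 15.4 CPM, far above their medians of 1.87, 1.62 and 0.145. Both lower calls of the list, Cd81 at -3.07 and Nap1l5 at -2.11, were lost without 6 dpp FGO 12, at -1.53 and -1.75.

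The Notch pathway, adhesion and retinoid lists are read beside the shares of all genes past 2-fold, 3.38% higher and 4.54% lower. Past 4-fold these shares were 0.780% and 0.420%, and counts near a share are no result about a list. Of 20 Notch pathway genes 2 were past 2-fold higher, Hes5, a target, at 1.09 and Heyl, another target, at 1.00, and 1 was lower, Rbpj, the DNA-binding partner of Notch, at -1.04. Of 28 adhesion genes 1 was past 4-fold lower, the gap junction gene Gja1, a call lost without 6 dpp FGOs 10 and 12 at a ratio of -1.33, and 5 were past 2-fold lower, among them Igsf21 at -1.97, Cdh20 at -1.20 and Cntnap2 at -1.11, while none was past 2-fold higher. Of 29 genes of retinoid and xenobiotic metabolism 2 were past 4-fold lower, 6 past 2-fold lower and 4 past 2-fold higher. The retinoid receptors Rarb and Rxra were on the higher side at 1.35 and 1.11, and the xenobiotic receptor Ahr and its target Cyp1b1 on the lower side at -1.06 and -1.28. Aldh1a1, which makes retinoic acid, gave -1.94 but had its highest 6 dpp value, 57.1 CPM, far above the median of 1.10. Gstm1 and Gstm2, the close copies past 4-fold, had highest 6 dpp values of 85.0 and 38.9 CPM against medians of 0.296 and 0.149. Both calls were lost without 6 dpp FGO 12, their ratios going from -2.95 and -2.18 to -1.42 and -1.03. Of the 29 tested genes that the study's own text names, 3 were past 2-fold higher and 2 lower, none past 4-fold, and since that text was written on these libraries the list is not independent of them.

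Part of the somatic cell markers moved with the lower side. Of the tested markers, 4 of 13 for granulosa and 5 of 9 for theca and stroma were past 2-fold lower, and 0 were past 2-fold higher. Of all genes tested, 4.54% were past 2-fold lower and 3.38% past 2-fold higher. Over the 13 granulosa markers found, the summed level was 239, 339 and 438 CPM in the lowest, median and highest iPSC-derived FGO and 243, 342 and 1849.5 in 6 dpp FGOs. The highest value was that of 6 dpp FGO 12, followed by 602 in 6 dpp FGO 10. The medians were thus alike, and Esr2 and Cyp19a1, which made up most of the sum, had ratios of 0.13 and -0.27. The theca and stroma markers, 12 genes, summed to 1.88, 8.45 and 11.9 against 6.23, 15.8 and 836 CPM, with 836 in 6 dpp FGO 12 and 339 in 6 dpp FGO 10. Of the other 22 6 dpp FGOs, 14 were above the highest iPSC-derived FGO in this sum, led by FGO 3 at 67.4 CPM. The median over the 22 was 13.9, so that leaving out 10 and 12 did not make the groups alike in this sum. Hsd3b1 made up much of it, at 644 CPM in 6 dpp FGO 12, 271 in FGO 10 and 44.8 in FGO 3. The sum thus rests in large part on 1 gene, and which somatic cell type it came from was not tested. No marker of either list was at 0 over the whole of either group, while the defining granulosa genes Amh and Wt1 were near 0 in both, at 0.00602 and 0.0602 CPM in iPSC-derived and 0.00628 and 0.0251 in 6 dpp FGOs.

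**Figure D4:**
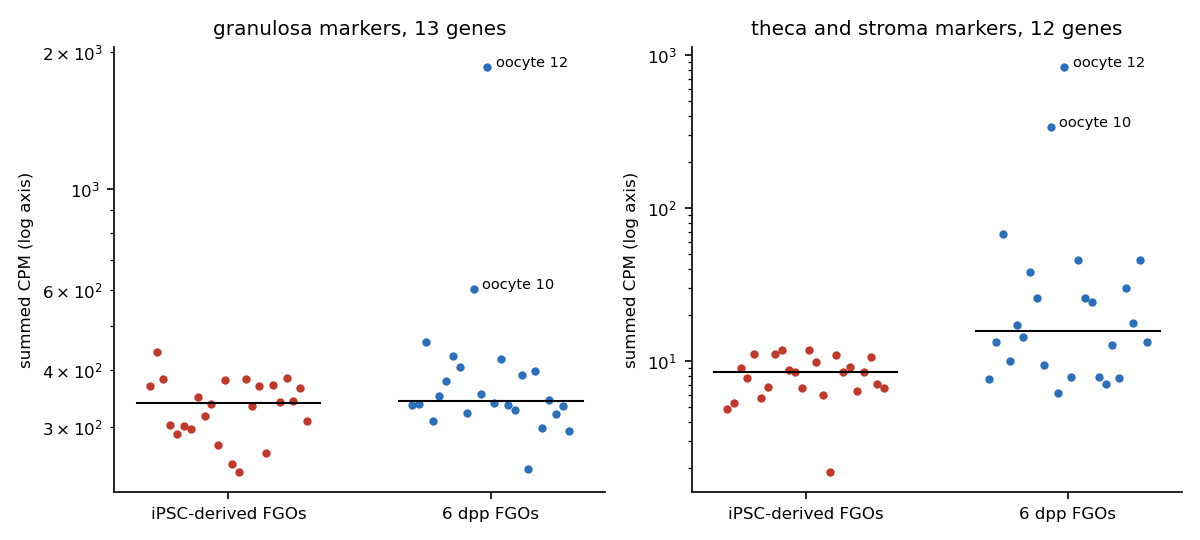
Summed CPM (log axis) of the 13 granulosa markers and the 12 theca and stroma markers in single oocytes, with 1 point per oocyte and the group median as a line. The 6 dpp FGOs 10 and 12 lie above all others in both panels. Of the other 22 6 dpp FGOs, 1 lies above the highest iPSC-derived FGO in the granulosa panel and 14 do in the theca and stroma panel.

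The genes concerned included the largest ratios on the lower side. Gja1, the main connexin of granulosa cells, had a ratio of -4.65 with all oocytes, -2.30 without 6 dpp FGO 12 and -1.33 without both 10 and 12. Clu, a secreted chaperone, went from -5.42 to -2.77 and -1.50, Prss35, an ovarian protease, from -5.00 to -1.73 and -0.40, and Inhba, an activin subunit, from -3.33 to -1.82 and -0.93. Of the 14 genes of steroid synthesis 3 were past 4-fold and 7 past 2-fold lower, with a median of -0.97. Of all genes tested, 0.420% were past 4-fold lower and 4.54% past 2-fold lower. Hsd3b1, which makes progesterone and has close copies, was at 0.289, 2.03 and 4.81 CPM against 0.381, 9.51 and 644, and its ratio of -4.33 was -2.48 without both libraries. Of the other 22 6 dpp FGOs, 13 were above the highest iPSC-derived FGO in Hsd3b1, the highest being FGO 3 at 44.8 CPM. Cyp11a1, the first enzyme of steroid synthesis, went from -3.05 to -1.05 and Hsd17b1, which makes estradiol, from -2.78 to -1.82. Malat1, a nuclear noncoding RNA of most somatic cells, had medians of 3.11 against 14.7 CPM and went from -4.46 to -1.86, while Acsbg1, an acyl-CoA synthetase, went from -4.62 to -2.02. Ccn2, a matricellular protein, changed sides, from -2.22 to 1.53. Of the 57 lower genes, 22 were still called without both libraries, and the part of somatic RNA in those 22 was not tested.

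Some genes of the 2-cell stage were on the higher side, in part through other libraries, although the list as a whole summed to less in iPSC-derived FGOs. In mouse embryos Zscan4 and its companions mark the first activation of the genome, and they flicker in cultured stem cells. The list was chosen after the values were seen. Of its 12 tested genes 7 were past 4-fold higher, 8 past 2-fold higher and 2 past 2-fold lower. Of all genes tested, 0.780% were past 4-fold higher, 3.38% past 2-fold higher and 4.54% past 2-fold lower. Some of the 12 entered only through iPSC-derived FGOs, since Usp17lb and Eif4a3l1 reached at most 0.991 and 0.858 CPM in any other FGO. The counts of this list therefore follow in part from its choice and from the filter. The summed level of the 20 listed genes found was 562, 835 and 1289 CPM in the lowest, median and highest iPSC-derived FGO and 838, 1070.5 and 1240.4 in 6 dpp FGOs, with 1289 in FGO 14 and 854 in FGO 24. Zscan4c was at 78.5 CPM in iPSC-derived FGO 14, 28.0 in 24, 24.3 in 16 and 6.09 in 22, at most 2.33 in any other iPSC-derived FGO and at most 3.02 in any 6 dpp FGO. Zscan4d reached 181 in FGO 14 and 50.4 in FGO 24, against at most 19.5 in 6 dpp FGOs. Of the 8 genes past 2-fold 7 were highest in FGO 14, and FGO 24 was among the 3 highest in 5. Without both libraries the ratio of Zscan4c fell from 2.96 to 1.66, that of Zscan4d from 2.42 to 1.29, with 1.64 without FGO 14 alone, and that of Usp17le from 2.46 to 1.63, all under 4-fold. Tcstv1 and Tcstv3, also of this stage, were lower, at 14.6, 34.2 and 57.1 against 52.9, 81.1 and 111 CPM and at 1.63, 6.99 and 15.2 against 2.62, 19.5 and 41.9. These families consist of near-identical copies, and their levels are uncertain.

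**Figure D5:**
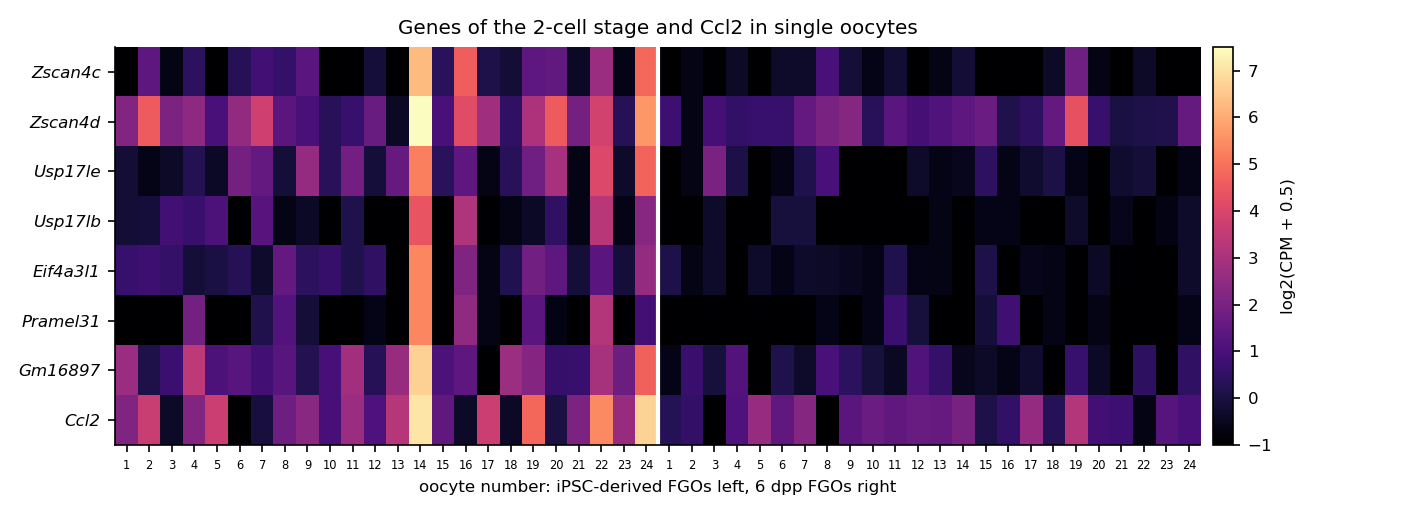
Log2(CPM + 0.5) of 7 genes of the 2-cell stage and of the chemokine gene Ccl2 (rows) in single oocytes (columns), with the 24 iPSC-derived FGOs left and the 24 6 dpp FGOs right of the white line. Bright cells gather in iPSC-derived FGOs 14 and 24, with fewer in 16 and 22.

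The median spread between oocytes was somewhat larger in the iPSC-derived group. Over the 6695 genes of at least 10 CPM in both groups, the median SD of log2(CPM + 0.5) was 0.290 in iPSC-derived and 0.258 in 6 dpp FGOs, and the SD was larger in iPSC-derived FGOs for 65.8% of genes. It was at least 2 times larger in 319 genes in iPSC-derived and in 153 genes in 6 dpp FGOs. Without iPSC-derived FGOs 14 and 24 and 6 dpp FGOs 10 and 12 the counts were 223 and 182. Without all 6 libraries that stood apart, iPSC-derived FGO 13 and 6 dpp FGO 3 included, they were 165 and 193, so that the order of these counts turned, while the median SD was 0.257 against 0.239 and the SD larger in iPSC-derived FGOs for 61.3% of genes. Gm19757 was the most uneven, at 0.745, 195 and 405 CPM in iPSC-derived against 126, 334 and 509.7 in 6 dpp FGOs. Arid5b, a chromatin factor, was at 5.92, 218 and 260.5 against 305, 477 and 557, so that even its highest iPSC-derived value lay below the lowest 6 dpp value. Its lowest value was that of iPSC-derived FGO 23 alone, and the next lowest was 97.6 CPM in FGO 8. Extl1, a glycosyltransferase, was at 3.51, 74.3 and 133 against 129, 161 and 234.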

How the data were processed

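Single oocytes had been sequenced by Smart-seq2. The deposited table holds raw counts of reads per gene that the authors made, 1 column per oocyte, and an exonic width per gene that was not used here. The submitters' processing notes name STAR and GRCm38, and the methods of the study state counting of uniquely mapped reads with QuasR on 1 randomly chosen isoform per gene from TxDb.Mmusculus.UCSC.mm10.knownGene 3.2.2. The QuasR version and the use of strand are not given in the sources used here, so overlapping and antisense genes are uncertain, as are genes with close copies. Of 21950 genes, 21907 were found in RefSeq (GRCm38.p6), which gave symbols and positions, and 0 columns of per-oocyte values went unmapped.

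All labelled oocytes of both groups entered. Counts were summed over a group and divided by its total to give CPM, with exact Poisson 95% intervals that cover counting error only, since amplified reads are not independent molecules. Genes needed CPM above 1 in at least 3 FGOs of any source. The pseudocount was 0.5 CPM and the size rule 4-fold. No replicate check exists, because labels give no animal or culture. The text names in each direction the 15 genes with the ratios farthest from 0 among those that reached 5 pooled CPM in 1 group and were past 4-fold also between medians and with any oocyte left out. It then names members of gene lists past 4-fold, past 2-fold where a list had none, and defining members. The members, lists, rules and tests of stability were chosen with earlier results of these data known. The alternatives were 2 other scalings (TMM of edgeR 4.0.16 and size factors of DESeq2 1.42.0 in R 4.3.3), other pseudocounts, filters and summaries, the coefficient of an edgeR fit as a value with no test, and other sets of oocytes. The size rule was tested on simulated data. Promoter sequences came from RefSeq, and Python 3.11.15 with pandas 2.3.3 and scipy 1.17.1 was used.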

Additional observations from a re-analysis of the deposited data

How the results depend on the processing

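No paired analysis was possible because no test was made and the oocyte numbers of the groups only name single oocytes. The counts past 4-fold depended on the pseudocount, since many of these genes are low: 188 higher and 158 lower at 0.1 CPM, 46 and 18 at 2 CPM, beside 106 and 57. The edgeR coefficient, with its own prior count, gave 263 and 291. The mean of log2 CPM over oocytes gave 34 lower genes. Without 6 dpp FGOs 10 and 12 there were 22 lower genes, and leaving out 1 oocyte at a time gave 28 to 62 lower, the lowest without 6 dpp FGO 12, and 99 to 112 higher. TMM and DESeq2 scaling gave 110 higher each and 54 and 53 lower. The median ratio was -0.02 with DESeq2 size factors and with no filter on low levels. Thinned to 2000000 reads, oocytes held a median of 12277.5 (iPSC-derived) and 12365 (6 dpp) genes with a read. With growth classes cut at 4-fold, 1.98% of UP genes were called lower and 1.18% of DN genes higher. Leaving out iPSC-derived FGOs 14 and 24, or all 6 libraries that stood apart, setting no filter among GROs and filtering growth classes on gonad-derived and in vivo FGOs were chosen after seeing the data. With genes above 1 CPM in at least 3 GROs, 102 of the 106 higher genes remained, 102 above 0 and 64 past 4-fold, and 51 of the 57 lower genes, 47 below 0 and 6 past 4-fold. The ratios of the named genes kept their side of 4-fold in 351 of 360 values, and 9 values of 6 lower genes did not: Malat1, Hsd17b1, 1700057H21Rik, Peli2, Aox4 and Pnmal1. These genes had been chosen as past 4-fold between medians and with any oocyte left out. The count therefore follows in part from their choice. Over all calls, 89 of the 106 higher and 26 of the 57 lower genes stayed past 4-fold with any oocyte left out. Between medians 90 and 22 were past 4-fold. No ratio of these named genes reversed. Of the other genes past 4-fold lower, Ccn2 went from -2.22 to 1.23 without 6 dpp FGO 12 and to 1.53 without 10 and 12. Where no alternative's construction is named, the cause was not tested. With 1 sample per group, depth limits only the lowest genes, and the spread between cultures is unknown.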

Other observations

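Some genes varied widely between oocytes of the 6 dpp group. Gli3, a transcription factor of hedgehog signalling, was at 0.155, 55.5 and 113 CPM in the lowest, median and highest 6 dpp FGO and at 20.9, 59.4 and 93.3 in iPSC-derived FGOs, so that its medians were close. The other genes given here were higher in iPSC-derived FGOs. Fxyd6, a regulator of the sodium pump, was at 4.25, 28.1 and 88.5 against 122, 169 and 239, and Otx1, a homeodomain factor, at 6.21, 42.4 and 152 against 69.7, 196 and 333. The groups did not overlap for Fxyd6, which was among the genes past 4-fold at a ratio of 2.25, and they overlapped for Otx1.

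The 6 dpp FGOs 18, 20, 22 and 23 shared low values of 10 genes, a set that was chosen after the values were seen. Zfp296 was at 135 to 275 CPM in these 4 oocytes, at 311 to 1057 in the other 20 6 dpp FGOs and at 900.5 to 1547 in iPSC-derived FGOs. Tor1a, of the nuclear envelope, was at 115 to 286 against 376 to 1010.3 in the other 20, and Kif22, a chromosome-bound kinesin, at 178 to 345 against 548 to 1162. Irf1, an interferon regulatory factor, was at 87.8 to 147 against 229 to 533.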
